A study of Homo sapiens with 9 samples.

Results

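The 38 genes described here encode the enzymes that add acetyl groups to histones (writers), the enzymes that remove them (erasers) and proteins with bromodomains that bind acetylated lysine (readers). They were taken by symbol from a list of 16 writers, 18 erasers and 4 readers, and all 38 were found among the 26475 rows of the deposited gene table. The RNA came from MDA-MB-231, a triple-negative breast adenocarcinoma line, and was sequenced in bulk as 9 libraries. The knockdown group of 3 libraries was cells made stable with pLKO.1-shACSL4, a lentiviral hairpin plasmid against the acyl-CoA synthetase ACSL4. The PRGL493 group of 3 libraries was control cells to which the ACSL4 inhibitor PRGL493 was added, with no dose, exposure time or vehicle in the labels. The control group of 3 libraries was cells with the empty pLKO.1 vector and no treatment, so all 9 libraries come from cells that carry this vector backbone. A single hairpin plasmid is named, and the libraries of a group are from separate batches of cells, so p-values cover the spread between batches and not between hairpins or transductions. The series' title links ACSL4 to acetylation of histone H3. The libraries measure RNA, and acetylation itself was not analysed here.

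Acetylation of lysines in histone tails weakens their hold on DNA, offers docking sites to bromodomains and marks active promoters and enhancers. Writers take the acetyl group from acetyl-CoA and mostly work inside complexes of many subunits, while zinc-dependent histone deacetylases (HDACs) and NAD-dependent sirtuins remove it. Several members act mainly on other proteins or outside the nucleus, so the list follows enzyme families and not histone substrates alone.

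Library totals ran from 28673940 to 43027217 counts, and every member passed the filter on low counts, with at least 45 counts in each library and a median of 1619. Levels are CPM, the usual depth-scaled count, with TMM factors applied. ACSL4 itself had 29.5, 23.7 and 27.6 CPM in knockdown libraries, 333, 350 and 360 CPM in PRGL493 libraries and 342, 339 and 366 CPM in control libraries, low in the libraries labelled knockdown alone. The 5 genes taken as markers of MDA-MB-231 lay between 359 and 1810 CPM in every library, and the luminal breast genes ESR1, PGR and FOXA1 were under 1 CPM in all 9 libraries. Of the other luminal markers listed, GATA3 lay at 10.9 to 15.2 CPM, ERBB3 at 15.4 to 22.0 CPM and CDH1 at 0.42 to 2.04 CPM over the 9 libraries. The blood cell genes PTPRC and CD3E were under 1 CPM throughout, and CD14 lay at 33.8 to 41.0 CPM in knockdown, 19.6 to 22.3 CPM in PRGL493 and 23.9 to 28.6 CPM in control libraries. Knockdown replicate 2 stood apart. Genes with long transcripts (over 4827 bp) lay there at a median of -0.17, and genes with short ones (up to 2020 bp) at 0.17, as log2 differences from their mean over all 9 libraries. Calls that change without this library are given with and without it.

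Compared per kilobase of transcript in control cells, the members spanned from 105 CPM per kb for HDAC1 to 1.55 CPM per kb for HDAC4. HDAC1, a catalytic subunit of the NuRD, Sin3 and CoREST corepressors, was at 103 ± 7.09 CPM per kb in knockdown cells, 104 ± 1.95 in PRGL493 cells and 105 ± 1.60 in control cells (SD, n = 3 each). The BET reader BRD2 had 48.5 ± 2.23, 61.7 ± 2.69 and 54.1 ± 1.17 CPM per kb in the same order of groups. HDAC3, with 40.7 ± 3.39, 48.9 ± 0.03 and 45.5 ± 1.13 CPM per kb, and HAT1, with 51.2 ± 0.64, 52.4 ± 1.13 and 41.6 ± 1.63 CPM per kb, were the next highest. In knockdown cells HAT1 lay above BRD2, and HDAC3 lay above HAT1 in control cells but below it in both treatments. At the low end lay HDAC4, the sirtuin SIRT4 (1.51 ± 0.20, 1.30 ± 0.16 and 1.58 ± 0.25 CPM per kb) and the coactivator NCOA2 (1.53 ± 0.17, 2.47 ± 0.21 and 1.71 ± 0.19), whose control means do not differ beyond their spread. Lengths are those of the longest principal transcript in GENCODE 29, so the order of close neighbours depends on that choice.

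**Figure D1:**
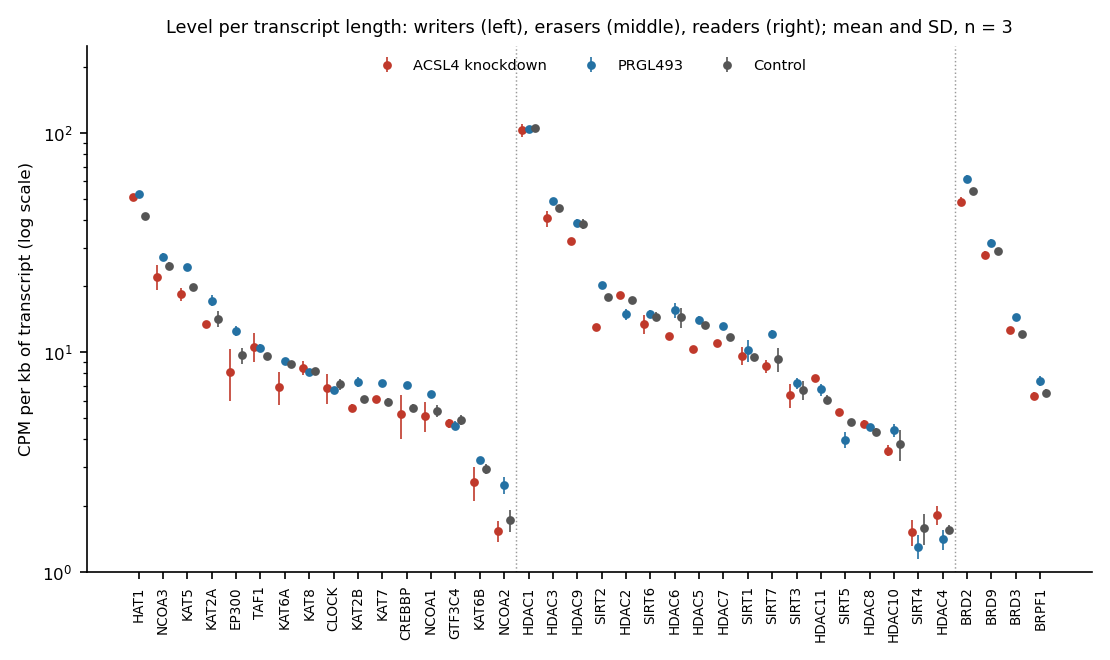
Level of each member per kilobase of transcript on a log axis (CPM per kb), as mean and SD of 3 libraries, for knockdown, PRGL493 and control cells, with writers, erasers and readers in separate blocks. HDAC1 is the highest at 103 to 105 CPM per kb, and HDAC4, SIRT4 and NCOA2 are the lowest in control cells.

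In knockdown against control, 9 of 38 members were called at an adjusted p below 0.05. HAT1 and HDAC11 rose. KAT6A, HDAC3, HDAC5, HDAC9, HDAC6, SIRT2 and BRD2 fell. The share of 23.7% lies below the 30.1% of all 14135 tested genes that were called (14.7% higher and 15.3% lower). The median log2 fold change was -0.08 over the members and 0.00 over all tested genes. The libraries of the groups did not overlap for 13 members, against 42.0% of all tested genes. By class, 1 writer rose and 1 fell of 16, 1 eraser rose and 5 fell of 18, and of the 4 readers 1 fell. In these bulk libraries, fewer cells of a kind and less RNA per cell cannot be told apart. Without knockdown replicate 2 the count was 13 (4 higher and 9 lower), adding TAF1 and HDAC4 as higher and KAT5 and SIRT6 as lower, and 34.2% of the members stood against 31.5% of all genes.

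In PRGL493 against control, 15 of 38 members were called, and 13 of them were higher. The writers KAT2A, KAT2B, HAT1, KAT5, KAT7, NCOA1 and NCOA2, the erasers HDAC7, SIRT2 and SIRT7 and the readers BRD2, BRD3 and BRPF1 rose, and HDAC2 and SIRT5 fell. The share of 39.5% is close to the 41.8% of all tested genes (21.4% higher and 20.4% lower). PRGL493 and control libraries did not overlap for 22 members, against 57.2% of all tested genes. The median log2 fold change was 0.14 over the members and 0.01 over all tested genes. Of 16 writers 7 rose and 0 fell, with a median of 0.26. Of 18 erasers 3 rose and 2 fell, with a median of 0.09, and of 4 readers 3 rose, with a median of 0.18. The model shares its spread over all 9 libraries, and without knockdown replicate 2 the count was 20 (18 higher and 2 lower), which included 11 of 16 writers and 4 of 4 readers. Of all genes 49.9% were then called, against 52.6% of the members.

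HAT1 was called higher in both treatments, SIRT2 and BRD2 were called lower in knockdown and higher with PRGL493, and 17 members were called in neither. Both comparisons use the same control libraries, so the values of a member in both are set side by side and are not independent of each other. All changes were under 2-fold. The largest was a 1.37-fold lower SIRT2 in knockdown, and with PRGL493 a 1.45-fold higher NCOA2.

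**Figure D2:**
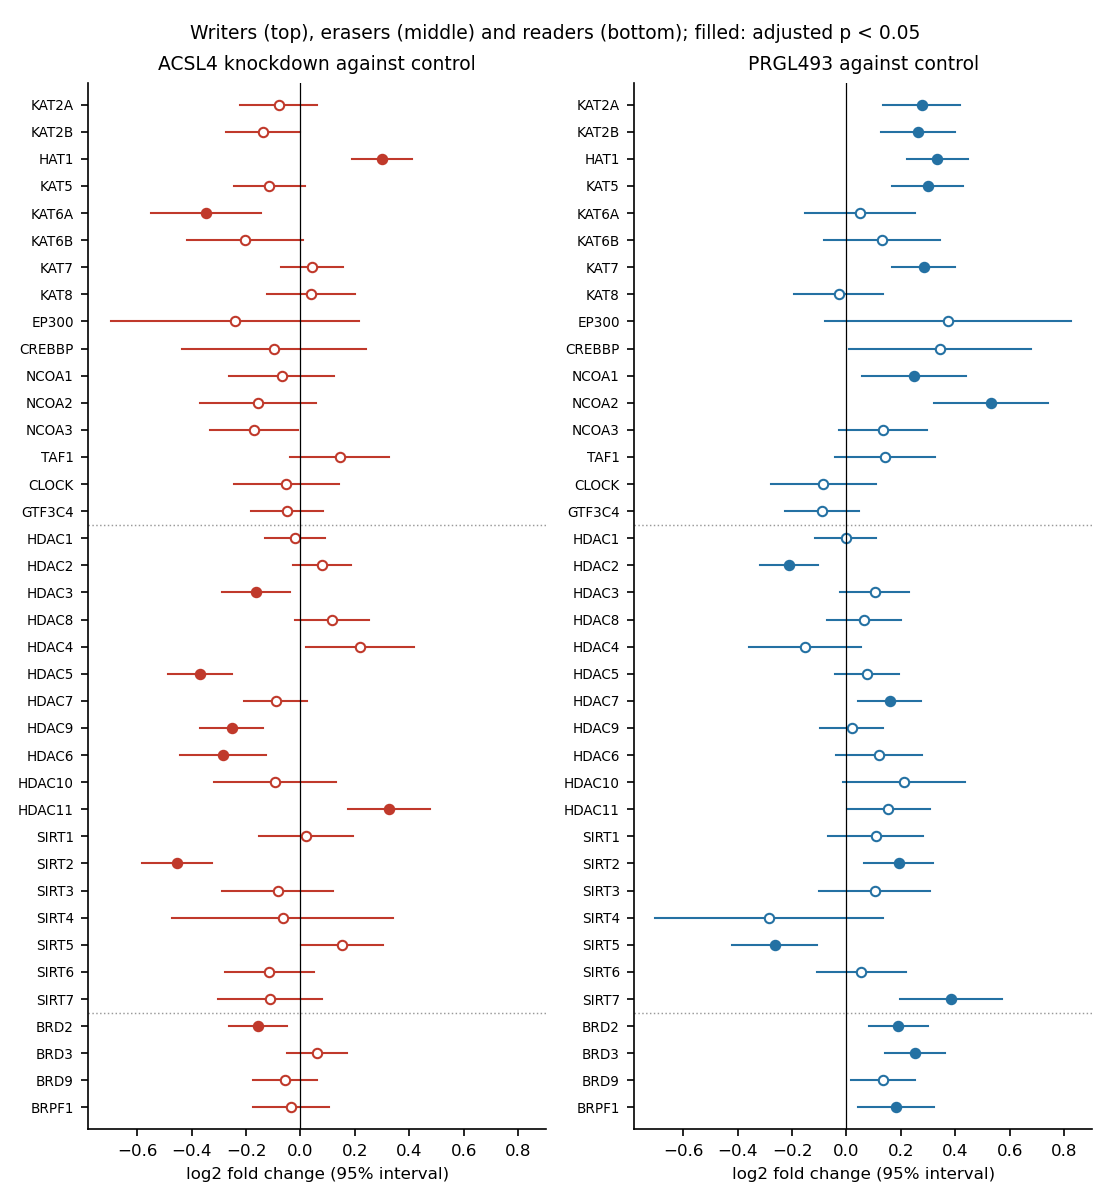
Log2 fold change of each of the 38 members with its 95% interval, in knockdown against control (left) and PRGL493 against control (right), with filled points for an adjusted p below 0.05. Knockdown has 2 filled points above 0 and 7 below it, and PRGL493 has 13 above and 2 below.

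Among the GNAT-type writers, all 3 rose with PRGL493 and HAT1 also rose in knockdown. HAT1 (chromosome 2, 171922448 to 171983682, plus strand, GRCh38) acetylates newly made histone H4 before it is placed on DNA. Its level was 83.0, 84.4 and 82.3 CPM in knockdown libraries, 87.2, 83.5 and 85.1 CPM in PRGL493 libraries and 66.9, 65.4 and 70.6 CPM in control libraries. The 6 knockdown and PRGL493 libraries were all above the 3 control libraries and overlapped each other. The log2 fold change against control was 0.30 in knockdown (SE 0.05, adjusted p = 0.00041) and 0.33 with PRGL493 (SE 0.05, adjusted p = 8.2e-05), and both calls held under all 19 alternatives. KAT2A and KAT2B are paralogs, also named GCN5 and PCAF, and serve as alternative catalytic subunits of the SAGA and ATAC coactivators. KAT2A had 40.8, 41.5 and 42.7 CPM in knockdown libraries, 53.6, 56.5 and 50.1 CPM in PRGL493 libraries and 47.8, 40.7 and 43.6 CPM in control libraries. KAT2B had 27.1, 25.8 and 27.8 CPM in knockdown libraries, 33.5, 35.9 and 37.2 CPM in PRGL493 libraries and 28.5, 29.9 and 30.3 CPM in control libraries. For both genes every PRGL493 library was above every other library, and the knockdown libraries overlapped the controls for KAT2A and lay under them for KAT2B. The rise with PRGL493 was 0.28 for KAT2A (SE 0.07, adjusted p = 0.0033) and 0.26 for KAT2B (SE 0.06, adjusted p = 0.0035). In knockdown the values were -0.08 (adjusted p = 0.39) and -0.14 (adjusted p = 0.12).

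Of the 5 MYST-type writers, KAT5 and KAT7 rose with PRGL493 and KAT6A fell in knockdown. KAT5, the TIP60 enzyme of the NuA4 complex with a role in DNA repair, had 40.0, 45.6 and 40.9 CPM in knockdown libraries, 57.3, 54.9 and 56.0 CPM in PRGL493 libraries and 46.3, 46.6 and 44.0 CPM in control libraries. KAT7, also named HBO1 and tied to replication origins, had 57.4, 58.8 and 60.5 CPM in knockdown libraries, 68.5, 69.6 and 71.0 CPM in PRGL493 libraries and 54.5, 57.5 and 59.5 CPM in control libraries. The PRGL493 libraries of both genes were above all others, while knockdown and control overlapped, for KAT5 through knockdown replicate 2 alone. The change with PRGL493 was 0.30 for KAT5 (SE 0.06, adjusted p = 0.00091) and 0.28 for KAT7 (SE 0.05, adjusted p = 0.00053), against -0.11 and 0.04 in knockdown (adjusted p = 0.17 and 0.61). KAT5 was called lower in knockdown without knockdown replicate 2 (-0.17, adjusted p = 0.022). It was also called lower there with the trend on transcript length removed (-0.15, adjusted p = 0.026). KAT6A and KAT6B are paralogs, known as MOZ and MORF, that acetylate histone H3 in a complex scaffolded by BRPF proteins. KAT6A had 70.7, 51.4 and 68.6 CPM in knockdown libraries, 86.2, 81.7 and 83.4 CPM in PRGL493 libraries and 77.9, 82.7 and 82.2 CPM in control libraries. All knockdown libraries were under all others, with replicate 2 the lowest. The fall in knockdown was -0.35 (SE 0.09, adjusted p = 0.013), and without replicate 2 it was -0.22 (adjusted p = 0.0027), while PRGL493 gave 0.05 (adjusted p = 0.70). KAT6B had 22.4, 17.1 and 24.4 CPM in knockdown libraries, 26.5, 27.8 and 26.4 CPM in PRGL493 libraries and 23.3, 24.5 and 25.9 CPM in control libraries. Its PRGL493 libraries were above the rest, but neither -0.20 in knockdown (adjusted p = 0.14) nor 0.13 with PRGL493 (adjusted p = 0.32) was called. The KAT6B value in knockdown was -0.07 without knockdown replicate 2 (adjusted p = 0.48), and -0.31 and called without knockdown replicate 3 (adjusted p = 0.036). KAT8, the MOF enzyme of histone H4, averaged 15.6 ± 1.18 CPM in knockdown, 14.9 ± 0.46 with PRGL493 and 15.2 ± 0.36 in control, and was called in no comparison.

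EP300 and CREBBP are paralogous coactivators, known as p300 and CBP, that acetylate histone H3 at enhancers and promoters. EP300 had 92.5, 54.5 and 87.8 CPM in knockdown libraries, 128, 116 and 116 CPM in PRGL493 libraries and 84.1, 95.1 and 98.6 CPM in control libraries. CREBBP had 64.5, 41.2 and 62.8 CPM in knockdown libraries, 76.5, 76.6 and 76.1 CPM in PRGL493 libraries and 58.0, 63.0 and 59.6 CPM in control libraries. For both genes all PRGL493 libraries were above all others, and knockdown replicate 2 was far under the rest. With all 9 libraries the change with PRGL493 was 0.37 for EP300 (SE 0.19, adjusted p = 0.16) and 0.34 for CREBBP (SE 0.15, adjusted p = 0.094), and neither was called. Without knockdown replicate 2 the same values came to 0.37 (SE 0.06, adjusted p = 3.1e-06) and 0.34 (SE 0.05, adjusted p = 1.3e-06). In knockdown EP300 was at -0.24 (95% interval -0.70 to 0.21) and CREBBP at -0.10 (-0.43 to 0.24), and without replicate 2 at -0.04 and 0.08. Both intervals include 0, so with all 9 libraries the direction of change in knockdown was not resolved for either gene.

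NCOA1, NCOA2 and NCOA3 are p160 coactivators that bring EP300 and CREBBP to nuclear receptors, and their own acetyltransferase activity is reported to be weak. NCOA2 (chromosome 8, 70109762 to 70403805, minus strand) had the largest change of all members with PRGL493. It had 12.9, 11.5 and 14.4 CPM in knockdown libraries, 22.7, 20.8 and 19.1 CPM in PRGL493 libraries and 12.7, 15.9 and 14.6 CPM in control libraries. The PRGL493 libraries were all above the other 6, which overlapped. Its log2 fold change with PRGL493 was 0.53 (SE 0.10, adjusted p = 4e-04), and in knockdown -0.16 (adjusted p = 0.26), or -0.08 without knockdown replicate 2. NCOA1 had 43.5, 31.8 and 39.0 CPM in knockdown libraries, 48.8, 47.9 and 45.9 CPM in PRGL493 libraries and 37.2, 40.7 and 42.1 CPM in control libraries. Its PRGL493 libraries were the highest and the rest overlapped. The change with PRGL493 was 0.25 (SE 0.09, adjusted p = 0.038), and the call was lost in 7 of 19 alternatives, among them leaving out any 1 PRGL493 library, control replicate 1 or 2, or knockdown replicate 3 (adjusted p up to 0.14). NCOA3, the AIB1 gene often amplified in breast cancer, had 115, 88.4 and 104 CPM in knockdown libraries, 132, 127 and 122 CPM in PRGL493 libraries and 109.9, 117 and 119 CPM in control libraries. PRGL493 libraries were again the highest, but 0.14 (adjusted p = 0.17) was not called, nor was -0.17 in knockdown (adjusted p = 0.10). Without knockdown replicate 2 the PRGL493 value was called (0.14, adjusted p = 0.023) and the knockdown value was -0.08 (adjusted p = 0.32). Without knockdown replicate 1 NCOA3 was called lower in knockdown (-0.26, adjusted p = 0.0044).

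The other writers have acetyltransferase activity beside another main role, and none was called in any comparison. TAF1, the scaffold of the general factor TFIID, averaged 60.1 ± 9.14 CPM in knockdown, 60.0 ± 2.03 with PRGL493 and 54.4 ± 1.26 in control. Without knockdown replicate 2 it was called higher in knockdown (0.26, adjusted p = 0.00052) and with PRGL493 (0.14, adjusted p = 0.020). CLOCK, a circadian transcription factor, averaged 70.8 ± 11.2, 69.3 ± 1.06 and 73.5 ± 4.54 CPM in knockdown, PRGL493 and control cells. GTF3C4, a subunit of the RNA polymerase III factor TFIIIC, averaged 42.97 ± 2.08, 41.8 ± 1.92 and 44.5 ± 2.41 CPM in the same groups. With the trend on transcript length removed, CLOCK and GTF3C4 were called higher in knockdown against PRGL493 (0.14, adjusted p = 0.034, and 0.15, adjusted p = 0.031).

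Among class I HDACs, which deacetylate histones in corepressor complexes, the 4 members moved little and not alike. HDAC2, a partner of HDAC1, had 184, 182 and 176 CPM in knockdown libraries, 140.1, 147 and 156 CPM in PRGL493 libraries and 169, 172 and 172 CPM in control libraries. The PRGL493 libraries were under all others, and the knockdown libraries were above all controls. The change was 0.08 in knockdown (SE 0.05, adjusted p = 0.25) and -0.21 with PRGL493 (SE 0.05, adjusted p = 0.0032). HDAC3, the enzyme of the NCoR and SMRT corepressors, had 74.0, 87.0 and 78.2 CPM in knockdown libraries, 95.8, 95.8 and 95.8 CPM in PRGL493 libraries and 89.4, 91.3 and 86.9 CPM in control libraries. Knockdown replicate 2 overlapped the controls. The fall in knockdown was -0.16 (SE 0.06, adjusted p = 0.048), the call was lost in 13 of 19 alternatives, among them each left-out library other than knockdown replicate 2, and PRGL493 gave 0.10 (adjusted p = 0.18). HDAC1 averaged 219 ± 15.1, 222 ± 4.15 and 222 ± 3.41 CPM in knockdown, PRGL493 and control cells, with a 95% interval of the log2 fold change of -0.13 to 0.09 in knockdown and -0.11 to 0.11 with PRGL493. HDAC8, which acts on the cohesin subunit SMC3, averaged 26.8 ± 1.17, 25.9 ± 0.18 and 24.7 ± 1.03 CPM and was not called. With the trend on transcript length removed, HDAC2 and HDAC8 were called higher in knockdown (0.18, adjusted p = 0.040, and 0.17, adjusted p = 0.026). In knockdown replicate 2, HDAC2 lay at 0.13 and HDAC8 at -0.02 from their means over all 9 libraries (log2). The median of long-transcript genes there was -0.17, so the removal also shifted genes that were not low in that library.

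Class IIa HDACs (HDAC4, HDAC5, HDAC7 and HDAC9) have little deacetylase activity of their own in vertebrates, shuttle between nucleus and cytoplasm and repress MEF2 factors. HDAC5 and HDAC9 fell in knockdown and HDAC7 rose with PRGL493. HDAC5 (chromosome 17, 44076746 to 44123702, minus strand) had 52.8, 54.9 and 57.2 CPM in knockdown libraries, 75.7, 77.4 and 70.9 CPM in PRGL493 libraries and 72.4, 71.3 and 69.2 CPM in control libraries. The knockdown libraries were under all others, and PRGL493 and control overlapped. Its change was -0.37 in knockdown (SE 0.06, adjusted p = 0.00012) and 0.07 with PRGL493 (adjusted p = 0.31). HDAC9 had 107, 102 and 101 CPM in knockdown libraries, 119.5, 126 and 130.0 CPM in PRGL493 libraries and 118, 122 and 130.3 CPM in control libraries. Again the knockdown libraries alone were low, with -0.25 (SE 0.06, adjusted p = 0.0025) against 0.02 with PRGL493 (adjusted p = 0.80). HDAC7 had 45.3, 45.1 and 44.8 CPM in knockdown libraries, 54.0, 54.9 and 51.8 CPM in PRGL493 libraries and 49.5, 46.5 and 47.9 CPM in control libraries. The 3 groups did not overlap, with knockdown lowest. HDAC7 rose by 0.16 with PRGL493 (SE 0.05, adjusted p = 0.027), a call lost in 8 of 19 alternatives, among them leaving out PRGL493 replicate 1 or 2 or control replicate 2 or 3 (adjusted p up to 0.12). Its knockdown value was -0.09 (adjusted p = 0.23). HDAC4 had 17.0, 14.3 and 17.3 CPM in knockdown libraries, 11.1, 13.6 and 13.1 CPM in PRGL493 libraries and 13.6, 13.5 and 14.7 CPM in control libraries. Its values overlapped the controls in both treatments, at 0.22 in knockdown (adjusted p = 0.089) and -0.15 with PRGL493 (adjusted p = 0.22). Without knockdown replicate 2 the knockdown value was called (0.30, adjusted p = 0.0095).

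The class IIb and IV members act largely on substrates other than histones. HDAC6, a cytoplasmic deacetylase of tubulin, had 51.5, 47.7 and 49.4 CPM in knockdown libraries, 63.7, 71.4 and 61.7 CPM in PRGL493 libraries and 67.6, 58.4 and 55.1 CPM in control libraries. The knockdown libraries were under all others. HDAC6 fell by 0.29 on the log2 scale in knockdown (SE 0.08, adjusted p = 0.0089), and without control replicate 1 the value was -0.20 and was not called (adjusted p = 0.071). PRGL493 gave 0.12 (adjusted p = 0.22), or 0.21 and called without control replicate 1 (adjusted p = 0.041). HDAC10, which acts on polyamines, had 10.1, 9.01 and 9.57 CPM in knockdown libraries, 11.1, 12.7 and 11.7 CPM in PRGL493 libraries and 12.1, 8.89 and 9.69 CPM in control libraries. Control replicate 1 lay among the PRGL493 libraries, and neither -0.09 in knockdown (adjusted p = 0.55) nor 0.21 with PRGL493 (adjusted p = 0.12) was called. Without that control library the PRGL493 value was 0.35 and called (adjusted p = 0.016). HDAC11, the class IV member, removes long fatty acyl groups from lysine. It had 22.1, 22.7 and 22.9 CPM in knockdown libraries, 20.8, 20.7 and 18.5 CPM in PRGL493 libraries and 18.3, 17.0 and 18.6 CPM in control libraries. All knockdown libraries were above all others. Its change was 0.33 in knockdown (SE 0.07, adjusted p = 0.0025) and 0.15 with PRGL493 (adjusted p = 0.098), and the difference between the treatments was 0.17 (95% interval 0.02 to 0.32, adjusted p = 0.051). It was called under several alternatives, among them library totals (0.19, adjusted p = 0.03) and without knockdown replicate 1 (0.20, adjusted p = 0.039).

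Sirtuins differ in where they act, and 3 of the 7 were called in a treatment. SIRT2 (chromosome 19, 38878555 to 38899862, minus strand), a mainly cytoplasmic deacetylase of tubulin that also reaches chromatin at mitosis, had the largest fall of all members in knockdown. It had 25.9, 27.0 and 27.9 CPM in knockdown libraries, 41.9, 41.2 and 43.3 CPM in PRGL493 libraries and 37.3, 38.03 and 35.3 CPM in control libraries. The 3 groups did not overlap, with PRGL493 highest and knockdown lowest. The change was -0.45 in knockdown (SE 0.06, adjusted p = 3.2e-05), a call that held under all 19 alternatives. With PRGL493 it was 0.19 (SE 0.06, adjusted p = 0.016), a call lost without PRGL493 replicate 1 or 3 or control replicate 3 (adjusted p up to 0.078). SIRT7, a nucleolar and chromatin deacetylase, had 15.3, 15.8 and 13.8 CPM in knockdown libraries, 21.7, 21.7 and 20.1 CPM in PRGL493 libraries and 18.5, 14.5 and 15.7 CPM in control libraries. The PRGL493 libraries were above all others. SIRT7 rose by 0.38 with PRGL493 (SE 0.09, adjusted p = 0.0023) and was at -0.11 in knockdown (adjusted p = 0.37). SIRT5, a mitochondrial enzyme that removes succinyl groups, had 21.0, 20.8 and 21.1 CPM in knockdown libraries, 17.1, 14.7 and 15.2 CPM in PRGL493 libraries and 18.8, 18.7 and 19.0 CPM in control libraries. The 3 groups did not overlap, here with knockdown highest and PRGL493 lowest. Its change with PRGL493 was -0.26 (SE 0.07, adjusted p = 0.0081), and 0.15 in knockdown was not called (adjusted p = 0.11).

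The remaining sirtuins were called in no comparison. SIRT1, a nuclear deacetylase, averaged 39.4 ± 3.79 CPM in knockdown, 41.9 ± 4.95 with PRGL493 and 38.9 ± 0.65 in control. SIRT6, a chromatin deacetylase, averaged 21.9 ± 2.19, 24.6 ± 1.05 and 23.7 ± 1.11 CPM in the same groups. The mitochondrial SIRT3 averaged 16.2 ± 2.00, 18.3 ± 1.13 and 17.1 ± 1.72 CPM. SIRT3 was called lower in knockdown against PRGL493 without knockdown replicate 2 (-0.28, adjusted p = 0.0082). SIRT4, also mitochondrial, had the fewest counts of the members, at 1.83 ± 0.25, 1.58 ± 0.20 and 1.92 ± 0.31 CPM, and its 95% interval with PRGL493 ran from -0.70 to 0.14.

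All 4 readers had positive values with PRGL493, and PRGL493 and control libraries did not overlap for any of them. BRD2 (chromosome 6, 32968660 to 32981505, plus strand), a BET protein that binds acetylated histone tails at active genes, had 237, 227 and 249 CPM in knockdown libraries, 309, 309.9 and 287 CPM in PRGL493 libraries and 271, 259.7 and 263 CPM in control libraries. The 3 groups did not overlap, with PRGL493 highest and knockdown lowest. The change was -0.16 in knockdown (SE 0.05, adjusted p = 0.029) and 0.19 with PRGL493 (SE 0.05, adjusted p = 0.0064). The knockdown call was lost in 8 of 19 alternatives, among them scaling by library totals (adjusted p = 0.079), by upper quartiles (adjusted p = 0.076) and without any 1 of the control libraries (adjusted p up to 0.11). BRD3, the second BET member listed, had 70.6, 70.1 and 72.8 CPM in knockdown libraries, 83.3, 81.5 and 78.7 CPM in PRGL493 libraries and 67.7, 67.1 and 69.8 CPM in control libraries. The 3 groups did not overlap, with control lowest. BRD3 rose by 0.25 with PRGL493 (SE 0.05, adjusted p = 0.00095), and 0.06 in knockdown was not called (adjusted p = 0.40). BRPF1, a scaffold of the KAT6A and KAT6B complexes, had 27.9, 26.04 and 27.98 CPM in knockdown libraries, 31.7, 33.5 and 30.2 CPM in PRGL493 libraries and 29.4, 27.5 and 27.2 CPM in control libraries. Only its PRGL493 libraries stood above the rest. Its 0.18 with PRGL493 (SE 0.07, adjusted p = 0.037) lost the call in 10 of 19 alternatives, among them DESeq2 (adjusted p = 0.064) and leaving out PRGL493 replicate 1 or 2 or control replicate 2 or 3 (adjusted p up to 0.18). BRD9, a subunit of a SWI/SNF-type remodeller, had 58.9, 62.3 and 57.8 CPM in knockdown libraries, 69.7, 65.3 and 69.3 CPM in PRGL493 libraries and 64.7, 61.0 and 60.5 CPM in control libraries. With PRGL493 its 0.13 was not called (adjusted p = 0.066), and without knockdown replicate 2 it was (adjusted p = 0.027).

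**Figure D3:**
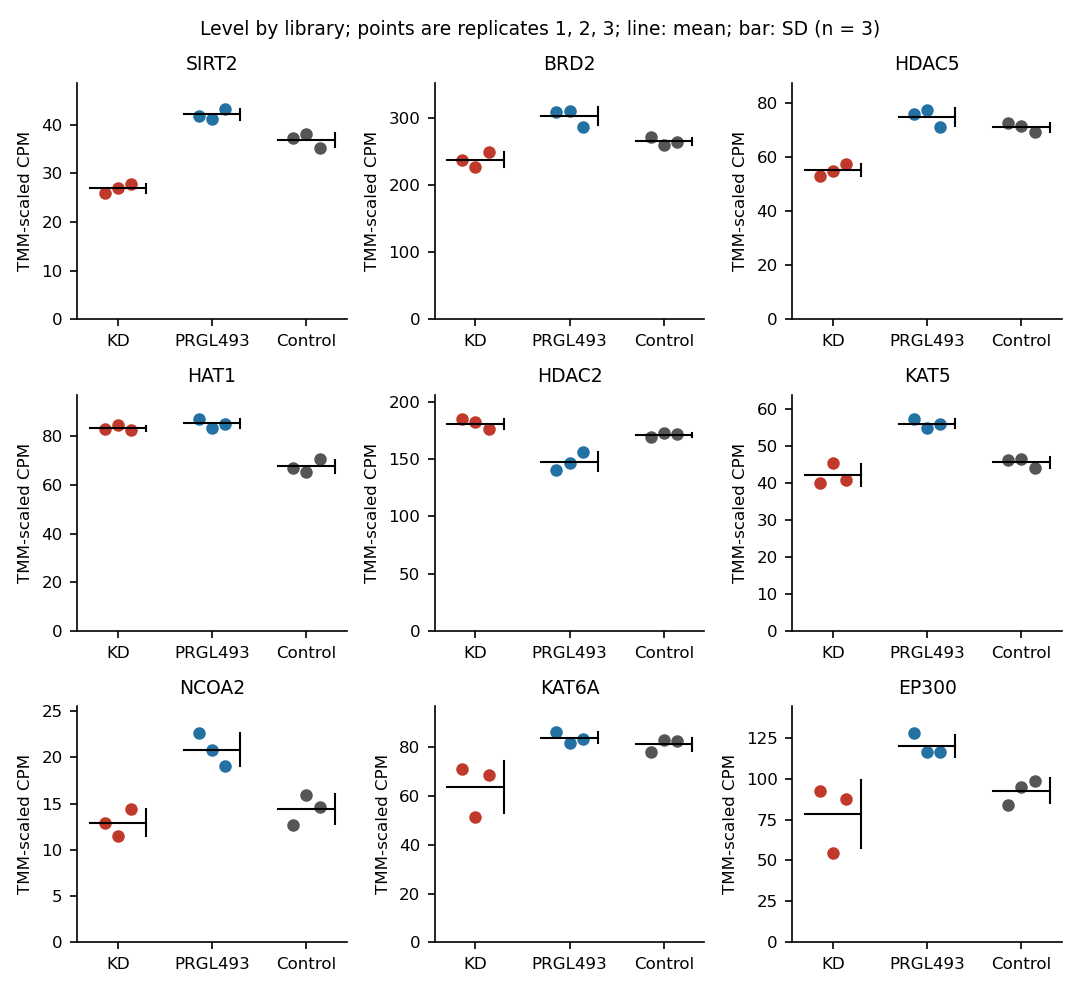
CPM of 9 members in each library, with knockdown, PRGL493 and control from left to right, points for replicates 1, 2 and 3, and the mean and SD of 3 libraries. SIRT2 and BRD2 separate into 3 levels, HAT1 is raised in both treatments, HDAC5 is low in knockdown alone, and replicate 2 is the low point of knockdown for KAT6A and EP300.

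SIRT2 and BRD2, called in opposite directions in the treatments, and HAT1, called alike in both, are shown with their promoters. The RefSeq table (GRCh38.p14), which runs from 250 bases before to 50 bases after the annotated start, held 33 of the 38 members. The first window listed for a symbol was used, so other starts of a gene were not searched. Each was searched on both strands for a CRE (TGACGTCA), an AP-1 site (TGANTCA), an EGR site (GCGNGGGCG), a GC box (GGGCGG), an ETS site (CCGGAAG) and a CCAAT box (CCAAT), where EGR and GC box matches can overlap. Capitals mark the matches. SIRT2 lies at chr19:38899569-38899868 (minus strand), BRD2 at chr6:32968344-32968643 (plus strand) and HAT1 at chr2:171922211-171922510 (plus strand).
SIRT2: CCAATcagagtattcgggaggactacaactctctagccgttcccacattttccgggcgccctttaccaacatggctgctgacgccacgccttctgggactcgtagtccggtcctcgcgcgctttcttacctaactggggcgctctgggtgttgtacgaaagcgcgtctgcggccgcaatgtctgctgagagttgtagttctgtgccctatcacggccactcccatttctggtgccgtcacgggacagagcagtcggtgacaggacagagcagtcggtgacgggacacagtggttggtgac
BRD2: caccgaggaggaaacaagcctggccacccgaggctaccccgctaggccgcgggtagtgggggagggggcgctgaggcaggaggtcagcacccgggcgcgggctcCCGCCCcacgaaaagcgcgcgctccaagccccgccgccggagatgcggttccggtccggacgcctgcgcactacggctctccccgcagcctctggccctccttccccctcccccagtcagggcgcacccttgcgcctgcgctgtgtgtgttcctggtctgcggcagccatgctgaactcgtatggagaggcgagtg
HAT1: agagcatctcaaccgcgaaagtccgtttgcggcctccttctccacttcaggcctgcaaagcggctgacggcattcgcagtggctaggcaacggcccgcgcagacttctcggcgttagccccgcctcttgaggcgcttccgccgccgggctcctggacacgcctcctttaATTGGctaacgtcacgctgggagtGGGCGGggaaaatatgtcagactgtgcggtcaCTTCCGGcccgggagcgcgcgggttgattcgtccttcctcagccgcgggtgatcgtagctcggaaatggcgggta
The SIRT2 window held 1 CCAAT box, the BRD2 window 1 GC box, and the HAT1 window 1 CCAAT box, 1 GC box and 1 ETS site. A GC box was in 20 of 33 member promoters, against 44.6% of all 27305 promoters, an ETS site in 8 (10.7% of all) and a CCAAT box in 7 (35.7%). An EGR site was in 5 members (9.28% of all), an AP-1 site in HDAC9 alone (7.76%) and a CRE in SIRT4 alone (1.98%). The HDAC9 window (chr7:18495499-18495798) lies inside the gene, whose GENCODE start is 18086949. The SIRT4 window (chr12:120291939-120292238) lies before the GENCODE start of that gene at 120302316. The windows of HDAC2, HDAC4 and HDAC7 also lie well inside their genes, away from the GENCODE start. All these windows stay in the motif counts and in the median GC content. The member promoters had a median GC content of 69.3%, against 58.3% over all promoters. These matches describe letters in a window and were not tested for binding.

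Set directly against each other, knockdown and PRGL493 cells differed in 26 of 38 members, 3 higher and 23 lower in knockdown. Over all tested genes 50.4% were called (24.4% higher and 26.0% lower). The libraries did not overlap for 27 members, against 56.0% of all genes. The median log2 fold change of knockdown against PRGL493 was -0.25 over the members and -0.01 over all genes. Of 16 writers 11 were lower and 0 higher, of 18 erasers 8 were lower and 3 higher, and all 4 readers were lower. NCOA2 differed most, at -0.69 (SE 0.10, adjusted p = 2.2e-05), or 1.61-fold, followed by SIRT2 at -0.65 (SE 0.06, adjusted p = 2.2e-07). The enzymes higher in knockdown were SIRT5 (0.42, adjusted p = 0.00014), HDAC4 (0.37, adjusted p = 0.0035) and HDAC2 (0.29, adjusted p = 0.00016). HAT1 did not differ detectably (-0.03, 95% interval -0.14 to 0.07), and its sign turned positive with upper-quartile scaling, while removing the trend on transcript length gave -0.12 and a call (adjusted p = 0.049). This comparison shares its libraries with both others, so it adds the test of the difference and no further samples.

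The genes called in this direct comparison alone were KAT6B (-0.33, adjusted p = 0.011), EP300 (-0.61, adjusted p = 0.032), CREBBP (-0.44, adjusted p = 0.033), NCOA3 (-0.31, adjusted p = 0.0034), HDAC4, HDAC10 (-0.30, adjusted p = 0.022) and BRD9 (-0.19, adjusted p = 0.0090). The calls of EP300 and CREBBP were each lost in 5 of 19 alternatives, among them leaving out any 1 PRGL493 library (adjusted p up to 0.097 and 0.086). HDAC10 lost its call in 4 alternatives, among them without knockdown replicate 3 or PRGL493 replicate 2 or 3, and BRD9 in 2, among them without PRGL493 replicate 1. Without knockdown replicate 2, 29 members were called (76.3%, against 51.1% of all genes), with CLOCK, SIRT3 and SIRT6 added, KAT6B was at -0.20 (adjusted p = 0.017), and EP300 and CREBBP stood at -0.41 (adjusted p = 3.3e-06) and -0.26 (adjusted p = 0.00018).

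**Figure D4:**
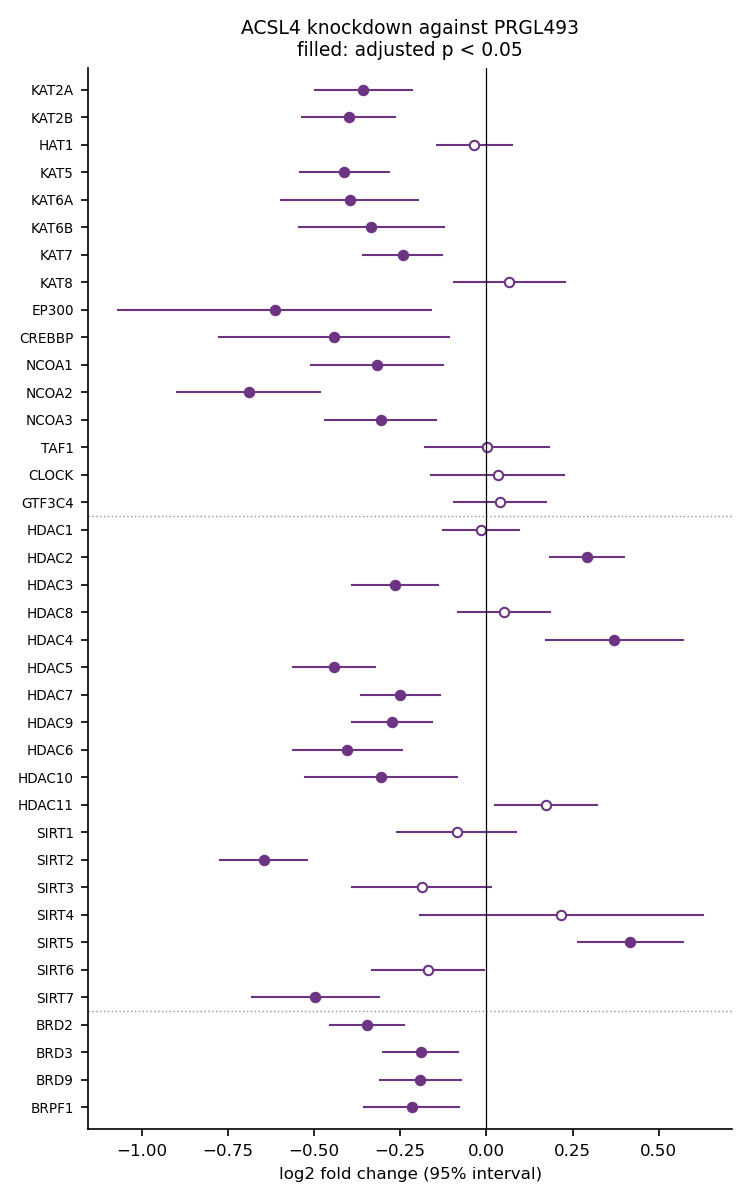
Log2 fold change of knockdown against PRGL493 for each of the 38 members with its 95% interval, with filled points for an adjusted p below 0.05. Of the filled points 23 lie below 0, NCOA2 and SIRT2 furthest, and 3 lie above it.

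Among the members, those with long transcripts were low in knockdown replicate 2. Long-transcript genes of the whole table were low there too, at a median of -0.17. Of 17 members with a transcript over 4827 bp, 10 had their lowest value of all 9 libraries in that library. So did 10 of the 16 writers and 13 of the 38 members. The share of all tested genes with their lowest value there was not counted, so whether these counts are particular to the members was not tested. The median deviation of the 17 from their mean over all libraries was -0.24 in that library, against -0.03 and -0.01 in knockdown replicates 1 and 3. It was between 0.10 and 0.17 in PRGL493 libraries and between -0.09 and 0.02 in control libraries. With the trend on transcript length removed from each library, 14 members were called in knockdown against control (6 higher and 8 lower), 17 with PRGL493 (15 higher and 2 lower) and 30 in the direct comparison (7 higher and 23 lower). These are 36.8%, 44.7% and 78.9% of the members, against 33.2%, 46.7% and 52.8% of all genes. The fall of KAT6A was then -0.26 (adjusted p = 0.0011), and EP300 and CREBBP were called higher with PRGL493 (0.36, adjusted p = 0.049, and 0.34, adjusted p = 0.0019).

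**Figure D5:**
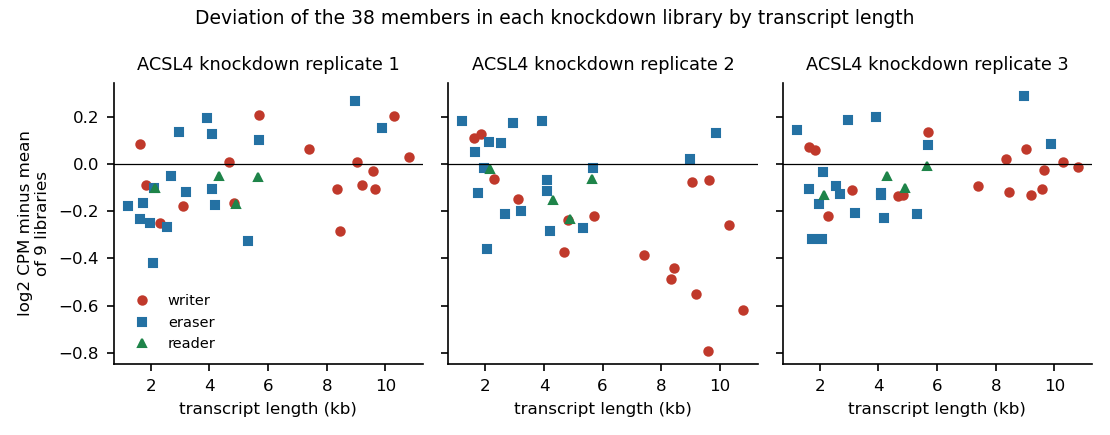
Log2 CPM of each member minus its mean over all 9 libraries, against transcript length in kb, for knockdown replicates 1, 2 and 3, with writers, erasers and readers as separate symbols. In replicate 2 the long-transcript members lie mostly below 0, with a median of -0.24, against -0.03 in replicate 1 and -0.01 in replicate 3.

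A list of 107 related genes, called partners here for short, was also read, and 106 of them passed the filter. It holds subunits of acetyltransferase complexes, corepressor subunits and other acetyl-lysine readers. The last are listed as readers and not as subunits, so pooled counts do not describe the enzymes' complexes alone. In knockdown against control 13 rose and 13 fell, with a median of 0.01, a share of 24.5% against 30.1% of all tested genes. With PRGL493 34 rose and 4 fell, with a median of 0.13, a share of 35.8% against 41.8%. In the direct comparison 9 were higher and 39 lower, a share of 45.3% against 50.4%. The even split in knockdown depended on the processing. Without knockdown replicate 2 it was 24 higher and 13 lower, against 2167 and 2325 of all genes. With the trend on transcript length removed it was also 24 and 13, against 2299 and 2387. Library totals gave 24 and 7, against 2660 and 1785 of all genes, and upper quartiles 24 and 9, against 2590 and 1823. With only the 2 groups compared the split was 10 and 8, against 1735 and 1893. With PRGL493 the split was 50 higher and 7 lower without knockdown replicate 2, against 3720 and 3412 of all genes. These were shares of 53.8% and 49.9%. Of 36 subunits of acetyltransferase complexes 6 rose and 5 fell in knockdown, and 16 rose and 2 fell with PRGL493. Of 40 corepressor subunits the counts were 5 and 6 in knockdown and 9 and 1 with PRGL493, and of 30 other acetyl-lysine readers 2 and 2 in knockdown and 9 and 1 with PRGL493.

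In knockdown the partners that fell with the smallest adjusted p were BRD8 and ING3 of the NuA4 complex and ELMSAN1, a scaffold of class I HDACs. BRD8 averaged 45.3 ± 1.63 CPM in knockdown and 67.2 ± 4.08 CPM in control (log2 fold change -0.57, adjusted p = 1.7e-06). ING3 averaged 9.76 ± 0.68 CPM in knockdown and 14.4 ± 0.84 CPM in control (-0.56, adjusted p = 8.5e-05), and ELMSAN1 65.2 ± 5.25 and 82.2 ± 3.29 CPM (-0.33, adjusted p = 0.0019). The 3 that rose with the smallest adjusted p were MORF4L1, shared by NuA4 and Sin3 complexes (0.30, adjusted p = 0.00015), ING5 of the KAT6 and KAT7 complexes (0.33, adjusted p = 0.0038) and KANSL2 of the KAT8 complex NSL (0.40, adjusted p = 0.0041). With PRGL493 the Sin3 subunit SAP30L averaged 51.1 ± 0.50 CPM, against 35.1 ± 1.07 CPM in control (0.54, adjusted p = 1.3e-06). The NSL subunit KANSL3 averaged 91.8 ± 3.07 CPM with PRGL493 and 64.9 ± 0.73 CPM in control (0.50, adjusted p = 3.9e-06). BRPF3, a scaffold of KAT7, averaged 151 ± 2.81 CPM with PRGL493 and 104 ± 2.09 CPM in control (0.54, adjusted p = 9.6e-06). Of the 4 that fell with PRGL493, those with the 3 smallest adjusted p were the reader ZMYND8 (-0.50, adjusted p = 2.4e-06), the NCoR subunit TBL1XR1 (-0.49, adjusted p = 1.5e-05) and MRGBP of NuA4 (-0.20, adjusted p = 0.0075).

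Some members share exon sequence with another gene, and whether reads were counted by strand is not given in the sources used here. SIRT2 shares 40 exonic bases with NFKBIB on the other strand, which was at -0.09 in knockdown (adjusted p = 0.35) and -0.05 with PRGL493 (adjusted p = 0.59). KAT5 shares 1439 with RNASEH2C on the other strand, which was also called higher with PRGL493 (0.23, adjusted p = 0.011). BRD2 shares 55 with HLA-DMA and HDAC7 shares 32 with SLC48A1, both on the other strand. HLA-DMA and SLC48A1 were called lower with PRGL493 (-0.55, adjusted p = 9.7e-06, and -0.45, adjusted p = 0.00088). The largest overlap is that of HDAC10, with 2763 bases shared with MAPK12 on the same strand. MAPK12 was at -0.02 in knockdown (adjusted p = 0.88) and -0.05 with PRGL493 (adjusted p = 0.69). BRD9 shares 404 with ZDHHC11 on the same strand and TRIP13 on the other. Both were called higher in knockdown (0.87, adjusted p = 0.011, and 0.33, adjusted p = 0.00059). How reads in the shared exons were split between such partners was not tested.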

How the data were processed

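The authors deposited estimated counts for 26475 gene symbols in 9 libraries, with no depth scaling. Since 10.5% of the deposited values were not whole, all were treated as estimated (expected) counts and rounded. The genome build was GRCh38, per the submitters' processing notes, while aligner, counter, annotation and strand setting are not given in the sources. In 28 rows the symbol had become a date, and these held 0.236% to 0.258% of each library's counts.

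After filterByExpr (14135 genes kept) and TMM scaling, edgeR 4.0.16 in R 4.3.3 (glmQLFit, robust) fitted a quasi-likelihood model with group as the sole term to all 9 libraries, which left 6 residual degrees of freedom and a biological coefficient of variation of 6.38%. Benjamini-Hochberg adjustment ran over every tested gene, and an adjusted p below 0.05 was called. Standard errors and 95% intervals come from that model, and every adjusted p in the text is from this edgeR test unless another tool is named. The code was tested on simulated counts. Each library counted as a sample, since the libraries of a group are from separate batches of cells. No replicate pair was alike within sampling noise (the smallest chi-square was 4.04 per degree of freedom). That value by itself cannot tell separate cultures from repeated preparations of the same RNA.

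Alternatives were DESeq2 1.42.0, other scalings and filters, fits of the 2 compared groups alone, a replicate block, removal of the length trend (a lowess curve with span 0.3 of log2 deviation on transcript length) and leaving out each library. Values in every library are given for members called in any comparison, and the 3 partners per direction and treatment with the smallest adjusted p are named. The members, lists and this rule were chosen with earlier results of these data known. Gene positions and lengths are from GENCODE 29, and promoters from RefSeq.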

Additional observations from a re-analysis of the deposited data

How the results depend on the processing

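Of 68 calls made for the named members and partners, 54 held under all 19 alternatives tried for each. The others are the calls of HDAC3, HDAC6 and BRD2 in knockdown, of NCOA1, HDAC7, SIRT2 and BRPF1 with PRGL493, and of KAT7, EP300, CREBBP, HDAC10, BRD3, BRD9 and BRPF1 in the direct comparison. Removing the length trend raised the members called in knockdown against control to 14. Leaving out a library gave 6 to 13 members in knockdown against control, 11 to 20 with PRGL493 and 22 to 29 in the direct comparison, and over all genes 3074 to 4770, 4769 to 7132 and 5941 to 7303. The highest member count in each came without knockdown replicate 2. Calls in knockdown over all genes were 49.0% higher ones, against 59.8% with library totals and 58.7% with upper quartiles, and in the direct comparison upper quartiles gave 58.4%. No scaling moved the median of all genes by over 0.1.

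Among the members called in any comparison, and the partners named, signs turned only where values were near 0 and not called, and the cause was not tested. In knockdown NCOA1 was at 0.0038 with the length trend removed, 0.0013 with the replicate block added and -0.176 to 0.0438 with a library left out. Leaving out a library gave -0.21 to 0.0811 for CREBBP and -0.182 to 0.0417 for HDAC10. With PRGL493 HDAC9 was at -0.0026 with upper quartiles, -9.77e-05 with a filter of 1 CPM in 3 libraries, -0.0149 with the length trend removed, -0.0143 with the block added, -0.0094 without control replicate 1, and -0.0170 to 0.0629 over all left-out libraries. In the direct comparison HAT1 was at 0.0205 with upper quartiles. Among the members called in no comparison, CLOCK, KAT8, GTF3C4 and HDAC1 are examples that turned sign under some of the settings tried. These genes had no call where their sign had turned, and the list is not complete.

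The replicate numbers are shared by the groups. Deviations of same-numbered libraries correlated at 0.062 to 0.15 for knockdown and control, at -0.084 to -0.015 for PRGL493 and control, and at -0.071 to -0.038 for knockdown and PRGL493, so the numbers were not taken as pairs. With the replicate as a block 7, 13 and 26 members were called, and 3879, 5635 and 6857 genes in all. Groups of 3 batches limit the changes that can be called, and SIRT4 had the fewest counts of the members.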
